A study of Mus musculus with 4 samples.

Results

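Polycomb repressive complex 2 (PRC2) was followed through a fixed list of 10 genes for subunits of the complex: *Ezh1*, *Ezh2*, *Eed*, *Suz12*, *Rbbp4*, *Rbbp7*, *Jarid2*, *Mtf2*, *Phf1* and *Phf19*. The list was chosen with earlier results of these data known, and other cofactors of PRC2 were read separately. All 10 were found among the 55359 gene identifiers counted, and all 10 were among the 14637 genes with enough counts to be tested. T8 is a pB-ALL cell line, that is a B cell precursor leukemia line, grown from the primary tumor of 1 Irf4-/- mouse, so that all 4 libraries share the genotype Irf4-/- and come from 1 tumor. The cells received a retrovirus coding for GFP alone (EV-RV, 2 libraries) or for GFP and IRF4 (IRF4-RV, 2 libraries). Total RNA was sequenced a day after transduction, from cells that the study describes as still viable. The study also reports that T8 cells expressing IRF4 were lost over time, so the values concern the cells alive at that point. The comparison asked how IRF4, a transcription factor of B cell maturation, altered the transcriptome of the leukemia when it was put back. The culture protocol in the labels names T11 cells where the titles and the tissue name T8, and the libraries were used as T8. The share of transduced cells in each library is not given in the sources used here.

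PRC2 places methyl groups on lysine 27 of histone H3, a mark of silenced genes. EZH2 or EZH1 is the catalytic subunit, EED and SUZ12 hold the core together, and EED also reads the finished mark, which stimulates the enzyme. RBBP4 and RBBP7 are histone chaperones that PRC2 shares with other chromatin complexes. The Polycomb-like proteins MTF2, PHF1 and PHF19 define one form of PRC2, and JARID2 and AEBP2 define the other. EZH2 is the form of dividing cells and is needed for normal early B cell development, whereas EZH1 is the less active form that persists in resting cells.

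The libraries held 31230223 to 37817752 counts, at which the detection floor used here, 3 counts, equals 0.0824 to 0.0952 CPM (counts scaled to the library size after TMM, which corrects for library composition). This floor covers counting error only. *Irf4* had 8070 and 7600 counts in the EV-RV libraries, against 95578 and 90693 in the IRF4-RV libraries, a log2 fold change of 3.46 (adjusted p = 1.15e-06 by the quasi-likelihood test of edgeR, Benjamini-Hochberg adjustment). These counts do not separate the vector from the endogenous gene, nor the deleted part of *Irf4* from the rest. The progenitor markers *Cd79a* and *Cd24a* each had at least 29068 counts in every library, while *Rag1* and *Rag2*, the recombinase of B cell precursors, had at most 1. Of 8 stromal cell markers, 6 were tested, and their summed level was 47.5 and 89.4 CPM in the EV-RV libraries, against 47.0 and 221.2 CPM in the IRF4-RV libraries. The second IRF4-RV library was thus high for collagen and other stromal genes, and the part of these cells in the results was not tested. *Lum* had at most 1 count and *Dcn* at most 2. Of the markers named here, all but *Cd24a* were chosen after their values were seen. Without that library the log2 fold change was 1.66 for *Ezh2*, 0.45 for *Ezh1* and -0.33 for *Rbbp7*. With any library left out, its group has 1 sample, which is assumed to vary like the other group, so these values are read for their size and direction, and a call gained or lost in such a fit rests on that assumption. In bulk RNA, fewer cells of a type and less RNA per cell cannot be told apart.

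*Ezh2*, the main methyltransferase gene of dividing cells, rose with IRF4-RV more than any other PRC2 gene. *Ezh1* rose by a smaller amount and *Rbbp7* fell slightly. The other 7 genes did not pass the cutoff, a false discovery rate of 0.1 as in the methods of the study. Of the 10 genes, 3 (30%) were therefore called, against 29.7% of all 14637 genes tested. The 2 higher genes compare with 16.0% of all genes called higher, and the 1 lower gene with 13.7% called lower. Scaling by library size alone called 2 higher and 2 lower, and over all genes the 2340 higher and 2009 lower calls became 1743 and 2867. The median log2 fold change was 0.04 over the 10 genes and 0.01 over all genes tested. The number of PRC2 genes called was thus close to the background, and the size of the *Ezh2* change set it apart within the list.

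**Figure D1:**
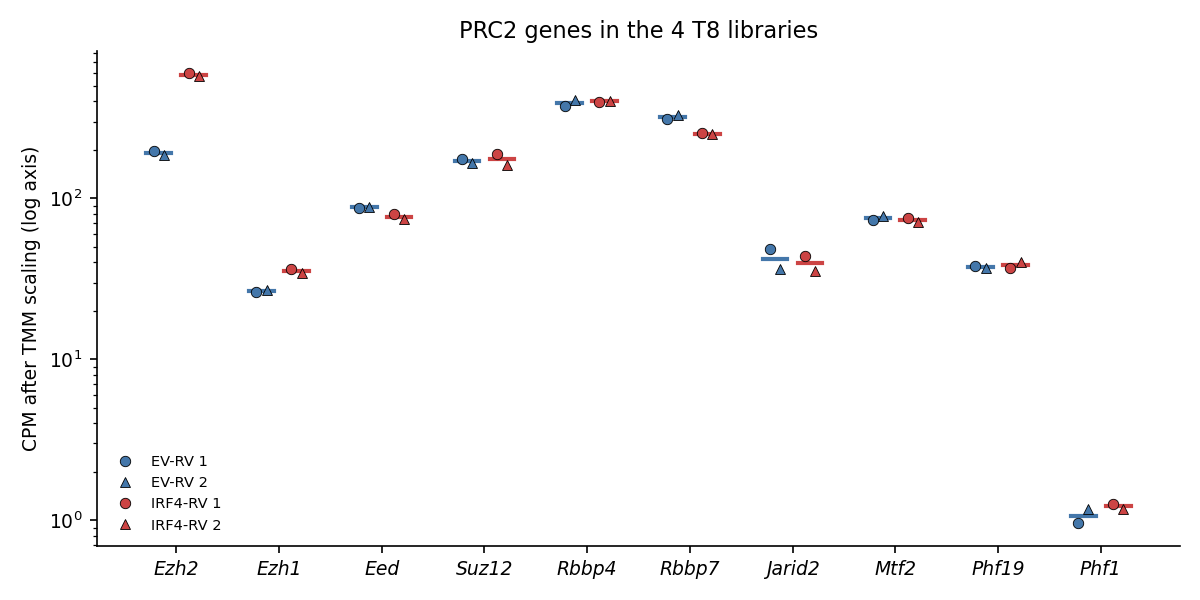
Level of each PRC2 gene in CPM after TMM scaling (log axis) in the 4 T8 libraries. Circles are replicate 1, triangles replicate 2 and bars the group mean (n = 2); the IRF4-RV points of *Ezh2* at 598.7 and 573.1 CPM lie clear of the EV-RV points at 196.1 and 184.9 CPM.

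*Ezh2* (ENSMUSG00000029687) lies on the minus strand of chromosome 6 of GRCm38 from 47530139 to 47595341, and *Ezh1* on the minus strand of chromosome 11 from 101191115 to 101226463. Their promoters are shown because these catalytic subunits were the 2 PRC2 genes that rose. The stretches run from 150 bases before to 15 bases after the RefSeq start site (GRCm38.p6), chr6:47595016-47595180 and chr11:101226449-101226613, both written 5′ to 3′ on the minus strand. Capitals mark a match to 1 of the E2F sequences searched, TTTCGCGC, TTTGGCGC, TTTCCCGC and TTTGCCGC, which bind the cell cycle factors of that family.
Ezh2 promoter: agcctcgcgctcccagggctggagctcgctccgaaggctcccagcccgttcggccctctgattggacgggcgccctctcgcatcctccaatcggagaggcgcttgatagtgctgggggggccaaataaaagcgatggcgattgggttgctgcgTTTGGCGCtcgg
Ezh1 promoter: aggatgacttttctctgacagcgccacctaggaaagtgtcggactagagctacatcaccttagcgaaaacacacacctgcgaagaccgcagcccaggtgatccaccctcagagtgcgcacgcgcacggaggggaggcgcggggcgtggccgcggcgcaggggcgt

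Both strands of the whole RefSeq window, 250 bases before to 50 after each start site, were searched for these letters and for GAAANNGAA, the spacing of paired IRF sites, and GGAANNGAA, a composite of an ETS and an IRF site. The 10 genes had 12 windows, and no matches in them overlapped each other. *Ezh2* held TTTGGCGC from base 4 to base 11 after the start, and *Suz12* and *Phf19* held TTTCCCGC at -219 and, on the other strand, at -208. E2F letters were thus in 3 of the 12 windows, from 3 genes, and 2.26% of the 32851 windows in the RefSeq table held them. The 12 windows held 45.7% to 75.7% G and C, and the 3 with E2F letters 64.3% to 74.3%. The median over all windows was 52.7%, and the difference in E2F letters was not tested. The IRF spacing was found in *Eed* alone, at -71, against 8.56% of all windows. The ETS-IRF spacing was found in *Jarid2* alone, at -32, against 8.24%. The *Ezh2* and *Ezh1* windows matched neither of the IRF patterns, which says only that these letters are not in these windows.

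The catalytic subunit *Ezh2* had 6543 and 5829 counts in the EV-RV libraries (196.1 and 184.9 CPM), against 20277 and 20865 in the IRF4-RV libraries (598.7 and 573.1 CPM). Both IRF4-RV libraries were far above both EV-RV libraries. The group means were 190.5 ± 7.94 and 585.9 ± 18.1 CPM (SD, n = 2 each), which differ by 1.62 on the log2 scale (3.08-fold, standard error 0.0752, 95% interval 1.45 to 1.80, edgeR adjusted p = 9.42e-06). It stayed between 1.53 and 1.66 over 11 alternative settings of the analysis. Of the other genes tested, 358 had a log2 fold change at least as large as that of *Ezh2*. The mean level of *Ezh2* over all 4 libraries was reached or passed by 378 other genes. Of these, 1 had a log2 fold change at least as large, and that gene was *Irf4*. This mean includes the IRF4-RV libraries, so the set of 378 depended on the rise of *Ezh2* itself, and the count is a description only.

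Genes beside *Ezh2* on the chromosome moved in both directions. They were chosen after the *Ezh2* values were seen. Within 500 kb, 15 other genes were tested, of which 4 were higher and 4 lower with IRF4-RV. The nearest, *Cul1*, a scaffold of ubiquitin ligases 4000 bases away, fell by 0.35 on the log2 scale (edgeR adjusted p = 0.0307). The highest, *Zfp956*, rose by 0.65 on the log2 scale (edgeR adjusted p = 0.00561). The lowest, *A930035D04Rik* and *Zfp786*, fell by 1.65 and 1.53 (edgeR adjusted p = 0.0938 and 0.0962). The 8 of 15 called compare with 29.7% of all genes tested, and the difference was not tested.

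Over the 14578 tested genes with a count in every library, the 3 genes whose log2 CPM followed *Ezh2* most closely were *Gpr132*, a G protein-coupled receptor, *Lipe*, a lipase, and *Ccl3*, a chemokine. Their distances to *Ezh2* over the 4 libraries, after each gene was centred on its mean, were 0.0501, 0.0686 and 0.0801 log2 units. All 3 were much lower in level, at 6.41 to 7.55 CPM with EV-RV and 19.3 to 24.7 CPM with IRF4-RV. With 4 libraries in 2 groups, this likeness reflects mainly the size of the difference between the groups.

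*Ezh1*, the other catalytic subunit, had 873 and 854 counts in the EV-RV libraries (26.2 and 27.1 CPM), against 1224 and 1255 in the IRF4-RV libraries (36.1 and 34.5 CPM). The groups did not overlap. It rose from 26.6 ± 0.651 CPM to 35.3 ± 1.18 CPM (SD, n = 2 each), by 0.41 in log2 units (standard error 0.0888, 95% interval 0.20 to 0.61, edgeR adjusted p = 0.0142). The interval of *Ezh2* lay wholly above that of *Ezh1*.

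**Figure D2:**
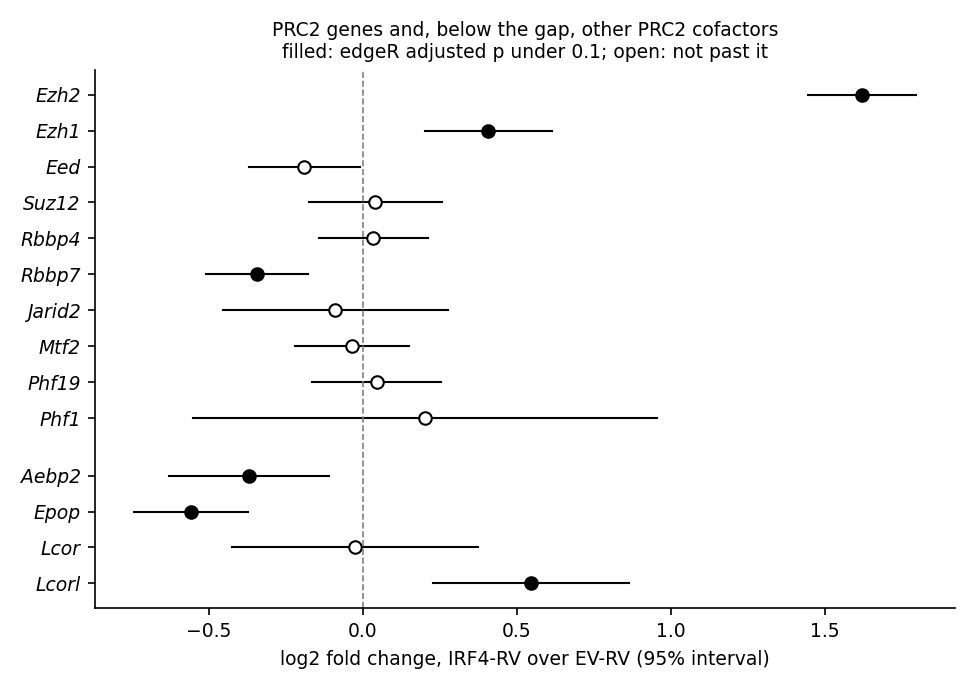
Log2 fold change of IRF4-RV over EV-RV for the 10 PRC2 genes and, below the gap, for 4 other PRC2 cofactors, with 95% intervals as lines. Filled points passed the adjusted p cutoff of 0.1 in edgeR; *Ezh2* stands at 1.62, and every other gene lies between -0.56 and 0.54.

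To compare different genes, levels were scaled to the length of their merged exons (RPKM, here CPM per kilobase). On this scale *Ezh2* made up 89.3% and 88.4% of the 2 catalytic genes together with EV-RV, and 94.9% in both IRF4-RV libraries. The shares were 88.8% ± 0.655 and 94.9% ± 0.0123 (SD, n = 2 each), and the groups did not overlap. The *Ezh2* to *Ezh1* ratio of levels was 8.35 and 7.60 with EV-RV and 18.5 in both IRF4-RV libraries. With 2 against 2 libraries an exact permutation test cannot give a two-sided p below 0.3333, so these shares and ratios were not tested.

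Neither core scaffold passed the cutoff. *Eed*, which reads the methyl mark, was at 87.2 and 88.6 CPM with EV-RV, against 79.5 and 74.5 CPM with IRF4-RV. Both IRF4-RV libraries were lower, by -0.19 on the log2 scale (standard error 0.0778, 95% interval -0.37 to -0.01), but the difference did not pass the cutoff (edgeR adjusted p = 0.127). It did with library size only (-0.28, edgeR adjusted p = 0.0366) and with a filter of 1 CPM in 2 libraries (-0.21, edgeR adjusted p = 0.0842). *Suz12*, which joins the catalytic part to the accessory proteins, was at 176.0 and 164.7 CPM with EV-RV, against 188.7 and 161.8 CPM with IRF4-RV. Its groups overlapped, and the log2 fold change was 0.04 (95% interval -0.17 to 0.26, edgeR adjusted p = 0.802). The whole interval lay below that of *Ezh2*.

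The balance of the core genes differed between the groups accordingly. Per length, the level of *Ezh2* was 1.29 and 1.20 times that of *Eed* with EV-RV, against 4.32 and 4.41 times with IRF4-RV. Against *Suz12* it was 0.825 and 0.831 times with EV-RV, against 2.35 and 2.62 times with IRF4-RV. *Ezh2* was therefore below *Suz12* in both EV-RV libraries and above it in both IRF4-RV libraries. The ratio of *Suz12* to *Eed* moved less, from 1.56 and 1.44 to 1.84 and 1.68. These ratios were chosen after the values were seen.

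Of the histone chaperones, *Rbbp7* fell. It had 10348 and 10321 counts in the EV-RV libraries (310.1 and 327.3 CPM), against 8566 and 9083 in the IRF4-RV libraries (252.9 and 249.5 CPM). Both IRF4-RV libraries were below both EV-RV libraries, and the log2 fold change was -0.34 (standard error 0.0710, 95% interval -0.51 to -0.18, edgeR adjusted p = 0.0113). Of its 50-base exon sequences 6.97% also occur in *Gm6382*, and how reads with several alignments were counted is not given in the sources used here. *Rbbp4*, its close relative, was at 373.5 and 408.2 CPM with EV-RV, against 396.9 and 403.4 CPM with IRF4-RV. The IRF4-RV values lay within the EV-RV range, and the log2 fold change was 0.03 (95% interval -0.14 to 0.21, edgeR adjusted p = 0.796). Per length, *Rbbp4* made up 29.0% ± 0.506 of the pair with EV-RV and 34.6% ± 0.480 with IRF4-RV (SD, n = 2 each). By the longest annotated transcript the shares were 37.1% and 43.4%, and by counts without length 55.1% and 61.4%. *Rbbp7* was thus the higher of the pair by either length, and *Rbbp4* only by counts without length.

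The accessory subunits showed no change past the cutoff. *Jarid2*, which brings PRC2 to ubiquitinated histone H2A, was at 48.3 and 36.2 CPM with EV-RV, against 44.1 and 35.4 CPM with IRF4-RV. The first library was the higher one in both groups, and the log2 fold change of -0.09 had the second widest interval of the list, -0.46 to 0.28 (edgeR adjusted p = 0.738). Its direction turned to 0.13 without the first EV-RV library and to 0.07 without the second IRF4-RV library.

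The Polycomb-like genes, whose proteins bind CpG-rich DNA, were level between the groups or too low to judge. *Mtf2* was at 73.3 and 77.1 CPM with EV-RV, against 75.3 and 71.4 CPM with IRF4-RV (log2 fold change -0.04, 95% interval -0.22 to 0.15, edgeR adjusted p = 0.797). *Phf19* was at 37.9 and 36.9 CPM with EV-RV, against 36.9 and 40.2 CPM with IRF4-RV (log2 fold change 0.04, 95% interval -0.16 to 0.25, edgeR adjusted p = 0.775). Both genes overlapped between the groups. *Phf1* had only 32 and 37 counts in the EV-RV libraries, against 43 in each IRF4-RV library, and its interval of -0.55 to 0.95 (edgeR adjusted p = 0.713) allows no statement in either direction. It shares 1370 bases of exon with *Cuta* on the other strand, and whether counting used the strand is not given in the sources used here. Within this family *Mtf2* took 62.3% and 63.9% of the length-scaled level with EV-RV, against 63.3% and 60.1% with IRF4-RV, and *Phf1* at most 1.74% in any library.

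The CPM of the groups did not overlap for 5 of the 10 genes, 3 higher (*Ezh1*, *Ezh2* and *Phf1*) and 2 lower (*Eed* and *Rbbp7*) with IRF4-RV. Over all genes tested, 61.3% had groups that did not overlap, so that separation alone did not mark these genes.

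**Figure D3:**
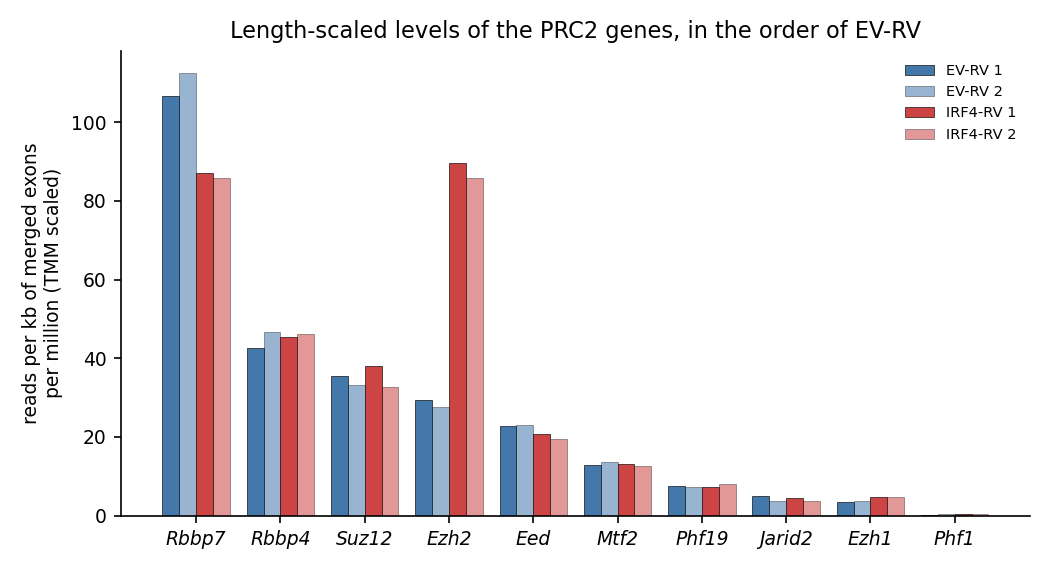
Length-scaled level (CPM per kilobase of merged exons, linear axis from 0) of the 10 PRC2 genes, 1 bar per library, in the order of their EV-RV means. *Ezh2* ranks behind *Rbbp7*, *Rbbp4* and *Suz12* with EV-RV at 29.4 and 27.7 and level with *Rbbp7* with IRF4-RV at 89.7 and 85.8.

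Per length, the order of the genes with EV-RV was *Rbbp7* (109.6 ± 4.18 RPKM), *Rbbp4* (44.7 ± 2.80), *Suz12* (34.5 ± 1.61), *Ezh2* (28.5 ± 1.19), *Eed* (23.0 ± 0.258), *Mtf2* (13.2 ± 0.478), *Phf19* (7.41 ± 0.140), *Jarid2* (4.35 ± 0.887), *Ezh1* (3.58 ± 0.0875) and *Phf1* (0.306 ± 0.0435; SD, n = 2 each). All neighbours in this order were apart in both libraries, with the least room between *Jarid2*, at 3.72 in its lower library, and *Ezh1*, at 3.64 in its higher one. With IRF4-RV, *Ezh2* (87.7 ± 2.71 RPKM) and *Rbbp7* (86.4 ± 0.837) led and overlapped in range. *Rbbp4* (45.8 ± 0.527), *Suz12* (35.4 ± 3.84), *Eed* (20.1 ± 0.929), *Mtf2* (12.9 ± 0.482) and *Phf19* (7.64 ± 0.468) kept their order. *Ezh1* (4.75 ± 0.159) then stood above *Jarid2* (4.09 ± 0.640), again with little room, and *Phf1* (0.352 ± 0.0180) was last. *Ezh2* alone made up 11.0% and 10.2% of the summed level of the 10 genes with EV-RV, against 28.8% and 28.7% with IRF4-RV.

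Other cofactors of PRC2 moved in both directions. *Aebp2*, the partner of JARID2, was at 78.9 and 64.5 CPM with EV-RV, against 58.2 and 52.8 CPM with IRF4-RV and fell by 0.37 in log2 units (standard error 0.113, edgeR adjusted p = 0.0507). This call was lost without the first EV-RV library (-0.23, edgeR adjusted p = 0.218) or the second IRF4-RV library (-0.30, edgeR adjusted p = 0.163). *Epop*, which links PRC2 to elongin, was at 74.7 and 74.8 CPM and then at 49.3 and 52.1 CPM and fell by 0.56 in log2 units (standard error 0.0793, edgeR adjusted p = 0.00211). *Lcorl* was at 6.98 and 6.95 CPM and then at 11.0 and 9.28 CPM and rose by 0.54 on the log2 scale (edgeR adjusted p = 0.0258), but by 0.39 and not past the cutoff without the first IRF4-RV library (edgeR adjusted p = 0.165). The other cofactor tested, *Lcor*, named after its value was seen, had a value of -0.03 (edgeR adjusted p = 0.934).

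The enzymes that remove the mark showed no call. *Kdm6a* was at 38.1 and 39.7 CPM with EV-RV, against 43.4 and 36.2 CPM with IRF4-RV (log2 fold change 0.03, edgeR adjusted p = 0.872). *Kdm6b* was at 14.1 and 12.4 CPM with EV-RV, against 18.8 and 13.8 CPM with IRF4-RV (log2 fold change 0.30, edgeR adjusted p = 0.233). Both overlapped between the groups, 0 of the 2 had an unadjusted edgeR p under 0.05, and DESeq2 called 0. Without the second IRF4-RV library *Kdm6b* passed at 0.51 (edgeR adjusted p = 0.0103).

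Other chromatin complexes were read from lists of their subunits. In PRC1, the Polycomb complex that ubiquitinates histone H2A, 4 of 23 genes tested were higher and 3 lower, with a median of 0.02. This share called, 30.4%, was close to the 29.7% of all genes tested. *Pcgf6* fell by 0.77, *Phc3* rose by 0.55 and *Scmh1* rose by 0.45 on the log2 scale (edgeR adjusted p = 0.00413, 0.0152 and 0.0102). With library size only, 2 PRC1 genes were higher and 5 lower. Without the second EV-RV or the second IRF4-RV library, 2 were higher and 2 lower. In PR-DUB, which removes that ubiquitin, 1 of 9 was higher (*Mbd5*, 0.54, edgeR adjusted p = 0.0733) and 1 lower (*Foxk2*, -0.35, edgeR adjusted p = 0.0131), with a median of 0.15. The PR-DUB share called was 22.2%, against 29.7% of all genes tested. Library size only left 0 higher and 1 lower there, and so did leaving out the second EV-RV or the first IRF4-RV library, where 0 genes were higher at an unadjusted edgeR p under 0.05. DESeq2 also called 0 higher and 1 lower. Without the second IRF4-RV library 3 were higher and 0 lower, with 1 lower at an unadjusted edgeR p under 0.05, and without the first EV-RV library 2 were higher.

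Among the Trithorax and COMPASS genes, whose enzymes oppose Polycomb, 1 of 18 was higher and 3 were lower, with a median of -0.07. The share called was 22.2%, against 29.7% of all genes tested. *Kmt2a* rose by 0.64 on the log2 scale (edgeR adjusted p = 0.0273). That call was lost without the second EV-RV library (0.57, edgeR adjusted p = 0.103) or the first IRF4-RV library (0.35, edgeR adjusted p = 0.112). *Wdr5* fell by 0.47 (edgeR adjusted p = 0.00346) and *Dpy30* by 0.32 (edgeR adjusted p = 0.0627). *Dpy30* was not past the cutoff without the second EV-RV library (-0.20, edgeR adjusted p = 0.255) or the first IRF4-RV library (-0.28, edgeR adjusted p = 0.203).

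*Rbbp4* and *Rbbp7* also serve in NuRD, Sin3 and CAF-1, and the other subunits of these complexes were mostly level or slightly lower. Of 18 tested, 1 was higher and 4 were lower, with a median of -0.13. This share called, 27.8%, was close to the 29.7% of all genes tested. The deacetylase *Hdac2* fell by 0.31 and *Mbd3* by 0.27, while *Hdac1* rose by 0.25 on the log2 scale (edgeR adjusted p = 0.0257, 0.0331 and 0.0392). These calls depended on single libraries: without the first IRF4-RV library 0 were called, with 1 higher and 3 lower at an unadjusted edgeR p under 0.05, and without the second 0 were higher and 1 lower, with 1 higher at an unadjusted edgeR p under 0.05. DESeq2 on all libraries called 1 higher and 3 lower, and library size only in edgeR 0 higher (1 at an unadjusted p under 0.05) and 8 lower.

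**Figure D4:**
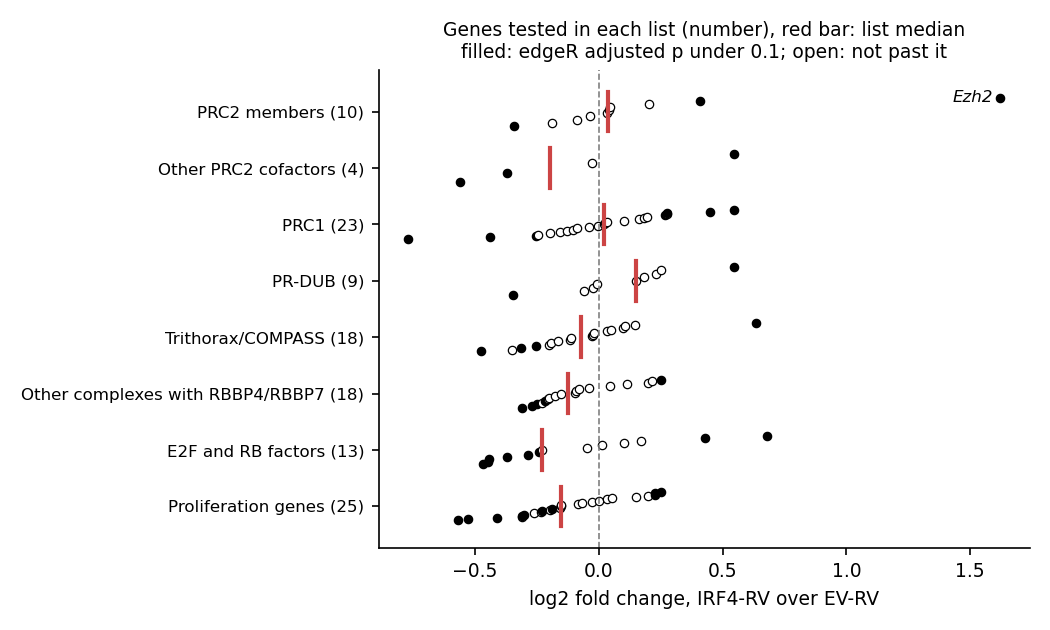
Log2 fold change of IRF4-RV over EV-RV for the tested genes of PRC2 and of 7 other lists, with the number of genes in brackets and the median of each list as a red bar. Filled points passed the adjusted p cutoff of 0.1 in edgeR; *Ezh2* at 1.62 is the only gene shown beyond 1 in either direction.

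*Ezh2* is known as a gene of dividing cells, and genes of division were read beside it. Of 25 proliferation genes, 3 were higher (*Ccnb1*, *Aurkb* and *Plk1*, all of mitosis) and 7 lower, with a median of -0.15. The share called was 40%, against 29.7% of all genes tested, and the difference was not tested. *Uhrf1* fell by 0.57, *Ccne2* by 0.53 and *Cdc6* by 0.41 on the log2 scale (edgeR adjusted p = 0.00159, 0.00693 and 0.0229). Also of mitosis, *Bub1* and *Cdk1* were not called (log2 fold change 0.002 and 0.056, edgeR adjusted p = 0.986 and 0.660). They and the higher genes were named after their values were seen. With library size only, 0 were higher, also at an unadjusted edgeR p under 0.05, and 15 lower. Without either IRF4-RV library 0 were higher and 4 lower, with 0 or 1 higher at an unadjusted edgeR p under 0.05, and without the first EV-RV library 2 were higher and 11 lower.

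Of 13 genes of the E2F and RB families, 2 were higher and 6 lower, with a median of -0.23. The share called was 61.5%, against 29.7% of all genes tested, and the difference was not tested. *Rb1*, the inhibitor of E2F factors, rose by 0.68 on the log2 scale (edgeR adjusted p = 0.00257). The repressors *E2f6* and *E2f8* fell by 0.47 and 0.45 on the log2 scale (edgeR adjusted p = 0.0154 and 0.0175). Among genes named after their values were seen, *E2f3* and *E2f1* fell by 0.44 and 0.37 (edgeR adjusted p = 0.0348 and 0.0319). *Rbl2*, of the RB family and also named so, rose by 0.43 (edgeR adjusted p = 0.017). Without the first IRF4-RV library 1 was higher and 3 lower. Without the second, 2 were higher and 2 lower, and *E2f8* was at -0.32 (edgeR adjusted p = 0.119). *Ezh2* thus rose while most called genes of these lists fell, and whether the values are linked was not tested.

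Genes that PRC2 is known to silence were mostly silent in both groups. Of 40 such genes, among them some but not all genes of the Hox clusters, 34 were too low to be tested. At most 3 counts in every library were found for 26 of the 40. The 34 together had 41 and 40 counts in the EV-RV libraries, against 38 and 86 in the IRF4-RV libraries, the last in the library with the high stromal markers. Of the 6 tested, 2 were higher and 0 lower, with 0 lower also at an unadjusted edgeR p under 0.05 and in DESeq2. The share called, 33.3%, was close to the 29.7% of all genes tested. The 4 not called ran from -0.31 to 0.29 on the log2 scale. Among them, *Hoxb4* had 64 and 70 counts with EV-RV, against 104 and 73 with IRF4-RV (0.29, edgeR adjusted p = 0.512). *Hoxb6* had 88 and 89 counts with EV-RV, against 72 and 102 with IRF4-RV (-0.15, edgeR adjusted p = 0.713). These Hox genes were thus expressed in both groups, and they were named after their values were seen. *Cdkn2b*, a cell cycle inhibitor, was at 22.1 and 23.1 CPM with EV-RV, against 42.6 and 43.1 CPM with IRF4-RV, and it rose by 0.92 in log2 units (standard error 0.0877, edgeR adjusted p = 0.0003). Its neighbour *Cdkn2a* was at 66.0 and 54.7 CPM with EV-RV, against 89.0 and 86.5 CPM with IRF4-RV, and it rose by 0.54 in log2 units (standard error 0.102, edgeR adjusted p = 0.00775). Both were higher in both IRF4-RV libraries, as *Ezh2* was. Histone methylation and protein were not measured in these libraries, so the values concern mRNA alone.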

How the data were processed

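Per the study's methods and the submitters' processing notes, reads were checked with FastQC (0.11.2), aligned to GRCm38 with STAR (2.4.0j) and assigned to genes with featureCounts. Raw counts were deposited for 55359 Ensembl identifiers, whole numbers without normalization, for 4 libraries in 2 groups. The settings for strand and multiple alignments are not given in the sources used here. Of the identifiers, 52083 matched GENCODE M21, which gave symbols, coordinates and exon lengths, and 3276 did not (0.203% to 0.486% of a library's counts). The study used DESeq2 (1.22.1).

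Here, genes passing filterByExpr were tested in R 4.3.3 with edgeR 4.0.16 (TMM factors, quasi-likelihood F test, Benjamini-Hochberg adjustment over all 14637 genes, cutoff 0.1), with all 4 libraries and no block. The procedure was tested on simulated data in which a far smaller share of genes changed than was called here. That test therefore does not bear on the choice of scaling. Alternatives were DESeq2 1.42.0, DESeq2 size factors, library size only, other count filters, a cutoff of 0.05, the replicate block and leaving out each library. Library totals were 31686715 and 31230223 (EV-RV) and 34771970 and 37817752 (IRF4-RV), and replicates differed by more than counting noise (chi-square per degree of freedom 15.5 and 14.3). The design text calls the replicates biological, but all come from 1 line, so p-values measure the spread between these samples.

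The 10 genes and the 14 other lists were chosen with earlier results of these data known. Named genes were all 10 members, *Irf4*, *Aebp2*, *Kdm6a*, *Kdm6b*, *Cdkn2a*, up to 3 called genes with the largest change per list, the most counted gene of a marker list and the 3 profiles nearest to *Ezh2*. Other names are said to be chosen after their values were seen. Promoter windows are from RefSeq (GRCm38.p6), and all 10 genes matched. Shared 50-base exon sequences were counted in GENCODE M21 transcripts, a check added after seeing the data.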

Additional observations from a re-analysis of the deposited data

How the results depend on the processing

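*Ezh2*, *Ezh1* and *Rbbp7* kept their direction and their call in all 11 alternatives, 4 of which leave a group with 1 library that is assumed to vary like the other group. *Eed* passed the cutoff with library size only (-0.28), with a filter of 1 CPM (-0.21) and with the replicate block (-0.19). The count of PRC2 genes called was 3 or 4 throughout, and that of all genes 3347 at a cutoff of 0.05 to 6394 with the replicate block, with DESeq2 at 3596. The genes called in the other lists went from 52 to 87 with the replicate block and stayed at 38 to 62 otherwise. Replicate numbers are shared by the labels only: deviations of same-numbered libraries correlated with r = 0.26 across 14637 genes, which are not independent replicates, and 2 pairs are too few to settle the pairing. The block also called *Kdm6b* (0.29) and 5 stromal markers. With library size only, which moved the median of all genes to -0.08, signs turned for *Suz12* (-0.051), *Rbbp4* (-0.056), *Phf19* (-0.047) and *Kdm6a* (-0.059), none of them called. With each library left out, uncalled values spanned 0 for *Suz12* (-0.095 to 0.15), *Rbbp4* (-0.038 to 0.10), *Jarid2* (-0.28 to 0.13), *Mtf2* (-0.094 to 0.0068), *Phf19* (-0.015 to 0.085) and *Kdm6a* (-0.13 to 0.16). The *Ezh2* share of the catalytic pair was 91.5% with EV-RV and 96.2% with IRF4-RV by the longest annotated transcript, and 87.7% and 94.3% by counts without length, so its level depends on the length used while the IRF4-RV share was the higher in each. *Phf1*, at 32 to 43 counts, was limited by depth.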

Other observations

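Beside the PRC2 genes, 9 of 15 progenitor markers tested passed the cutoff (60%, against 29.7% of all genes tested), 3 as higher and 6 as lower. The higher ones were *Blnk*, an adaptor of the B cell receptor (1.04), *Spn*, which encodes CD43 (0.84), and *Ptprc*, which encodes CD45 (0.53; edgeR adjusted p = 7.64e-05, 0.000254 and 0.0109), named after their values were seen. The surrogate light chain genes *Vpreb1* and *Vpreb2* fell by 1.49 and 1.32 on the log2 scale, and *Dntt*, which adds bases at V(D)J joints, fell by 1.55 (edgeR adjusted p = 3.82e-05, 8.62e-05 and 0.00575). *Cd24a*, the most counted marker, was at 1583 and 1793 CPM with EV-RV, against 1862 and 1843 CPM with IRF4-RV.

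Markers of other blood cells were low. Of 11 T and NK cell markers, 3 were tested and 0 called (0 at an unadjusted edgeR p under 0.05, 0 in DESeq2), at a summed level of 2.73 to 3.75 CPM with EV-RV, against 2.86 to 3.27 CPM with IRF4-RV. The summed level of 9 macrophage markers was 1.50 and 1.49 CPM with EV-RV, against 8.59 and 7.50 CPM with IRF4-RV, mostly from *Mrc1*, which rose by 3.27 on the log2 scale (edgeR adjusted p = 4.94e-05), while *Adgre1* was at 0 in every library. Of 8 granulocyte markers, *Ly6g* had 1 and 0 counts in the EV-RV libraries, against 71 and 58 in the IRF4-RV libraries, and *S100a8*, *S100a9*, *Camp* and *Ngp* were at 0 in every library. These markers at 0 were named after their values were seen. For the 6 stromal markers tested, 0 were called (0 at an unadjusted edgeR p under 0.05, 0 in DESeq2). With all genes of at least 1 count in the fit 5 were higher, without the first IRF4-RV library 6 were higher, and without the second 3 were lower.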
